A study of Mus musculus with 4 samples.

Results

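The comparison described here sets the exosome fraction of maturing adipocytes at D12 against that of immature adipocytes at D4, where Dx is the day after differentiation was induced. It was chosen by sampling day and uses 2 of the 4 arrays of the series, on each of which 1881 mouse miRNAs have 1 value. The cells were 3T3-L1, a mouse line of fibroblast-like preadipocytes that turns into fat-storing cells under hormones, and medium was collected at D0, D4, D12 and D16. All cells were kept in medium with 10% exosome-depleted FBS. D0 medium came from growth medium with low glucose, before induction. The D4, D12 and D16 cells had all received high-glucose medium with 1-methyl-3-isobutylxanthine, dexamethasone and insulin for 2 days and then high-glucose medium with insulin. Exosome fractions were pelleted by ultracentrifugation of the medium, and their RNA was labelled with Cy3. There was 1 array a day. Each array held a pool, mixed by equal protein amount from 2 independent experiments per the methods, while the sample titles number 3, and the comparison has no replicates. An exosome pellet can also hold other particles of the medium, and particles released by the cells cannot be told apart here from those left in the depleted serum.

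MicroRNAs are short RNAs that pair with messenger RNAs, mainly through the bases of the seed near their 5' end, and lower the output of those messengers. Cells export some of them in vesicles such as exosomes, from which other cells can take them up. Some miRNAs mark a cell type, such as the miR-144 and miR-451a gene of red blood cell precursors, while others such as let-7 or miR-21a are found in most tissues.

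Mature sequences of 27 miRNAs on which the comparison turns follow, 5' to 3', with the seed (bases 2 to 8) in capitals. They were copied from RefSeq (GRCm38.p6), in which 1608 of the 1881 miRNAs of the array were matched by name. The first set holds raised miRNAs known from blood and vessels, which share no seed.
miR-451a: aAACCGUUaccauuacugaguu
miR-144-3p: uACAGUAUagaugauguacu
miR-223-3p: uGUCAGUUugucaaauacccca
miR-126a-3p: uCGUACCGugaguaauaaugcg

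The next set is shown because its members share 1 seed and moved apart, with miR-99a-5p and miR-100-5p raised and miR-99b-5p lowered.
miR-99a-5p: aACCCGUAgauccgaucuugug
miR-100-5p: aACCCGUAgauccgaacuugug
miR-99b-5p: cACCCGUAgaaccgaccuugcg

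The miR-15/16 seed is shown with 1 raised member, miR-195a-5p, and 3 that stayed between the thresholds.
miR-195a-5p: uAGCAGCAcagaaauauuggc
miR-322-5p: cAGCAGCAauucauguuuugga
miR-16-5p: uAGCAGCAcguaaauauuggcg
miR-15b-5p: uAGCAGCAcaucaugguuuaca

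Other miRNAs that were higher at D12 or were detected there alone are miR-542-3p, miR-193a-3p and the pair miR-148a-3p and miR-152-3p, which share a seed.
miR-542-3p: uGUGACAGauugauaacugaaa
miR-193a-3p: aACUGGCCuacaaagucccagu
miR-148a-3p: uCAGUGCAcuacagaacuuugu
miR-152-3p: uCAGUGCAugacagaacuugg

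Lowered or lost miRNAs with a well-known role come next. The miR-29 members share their seed, among them miR-29c-3p, which was not lowered, while miR-21a-5p, miR-155-5p and miR-210-3p each have their own.
miR-29a-3p: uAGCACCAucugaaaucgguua
miR-29b-3p: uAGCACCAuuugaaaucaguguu
miR-29c-3p: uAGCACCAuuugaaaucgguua
miR-21a-5p: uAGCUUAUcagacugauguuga
miR-155-5p: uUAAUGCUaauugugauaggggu
miR-210-3p: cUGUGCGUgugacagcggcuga

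The last set holds lowered or lost miRNAs whose sequences are rich in G and C, among them miR-7047-5p and miR-6965-5p, which have the same seed.
miR-6769b-5p: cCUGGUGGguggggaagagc
miR-2137: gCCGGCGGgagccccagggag
miR-6944-5p: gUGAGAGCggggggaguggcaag
miR-7047-5p: uGAGGGAGgagggcugggucuga
miR-6965-5p: aGAGGGAGgcuauugggcaggaga
miR-125a-3p: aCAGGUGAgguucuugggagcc

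Without scaling between the arrays, the signal of miRNAs known from red blood cells, leukocytes and endothelium rose most from D4 to D12, led by miR-451a at 5.42 times its D4 signal. Signals of miR-29a-3p, miR-29b-3p, miR-21a-5p, miR-210-3p and miR-31-5p fell, together with a larger group of GC-rich miRNAs with high numbers in their names. The inflammatory miR-155-5p was detected at D4 and no longer at D12, and miR-148a-3p, the brightest of the newcomers, was detected at D12 and not at D4. A signal here is the total gene signal of the array software, an intensity summed over the probes detected for a miRNA. The ± values are the error that the software gives for it, which covers spots within 1 array alone.

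At D4 426 miRNAs were detected, with a median signal of 19.6, and at D12 406, with a median of 16.7. The summed signal was 39129 at D4 and 30966 at D12, and the 10 brightest miRNAs carried 48.3% of it at D4 and 49.5% at D12. The median variation between spots of 1 probe was 7.19% and 7.78%, against 21.1% on the D0 array, a value that the software marked as out of range. D0 took no part in the direct comparison. The D16 array was dimmer than D12, with a summed signal of 21873. The spike-in RNA dmr_3 of the labelling kit was 17582 on D12 and 12956 on D16. Total signals are also scaled by an effective spot size, 0.760 as fitted at D12 and a default of 0.6 on D0 and D16. Whether the falls from D12 to D16 given below go beyond these differences between the arrays was not tested.

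In all 374 miRNAs were detected on both days, and the median D12/D4 ratio over them was 0.865, with 264 below 1 and 110 above. A ratio above 2 was called raised and one below 0.5 lowered. By this rule 18 of the 374 (4.81%) were raised and 56 (15%) were lowered. Combining both software errors, the median error of a ratio was 0.22 in log2 units, and 162 of the 374 ratios lay more than 2 such errors from 1. The split changed with the scale of the 2 arrays. Scaling by the 75th percentile of miRNAs detected on both days moved the median ratio to 1.09, a shift of 0.33 on the log2 scale. The split then became 33 raised and 34 lowered, so that raised miRNAs made up 49.3% of those called in place of 24.3%. With the 4 detected spike-in RNAs of the labelling kit, whose ratios ran from 0.898 to 1.00, it was 20 raised and 52 lowered. Each of the 5 scalings lifted the median ratio, 4 of them by 1 factor for all miRNAs, so that raised miRNAs had to stay raised under those 4. All 18 (4.81%) stayed above 2 under quantile normalization too, and 33 of the lowered (8.82%) stayed below 0.5 under every scaling. The scatter of D12 against D4 signals shows both groups against the body of miRNAs.

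**Figure D1:**
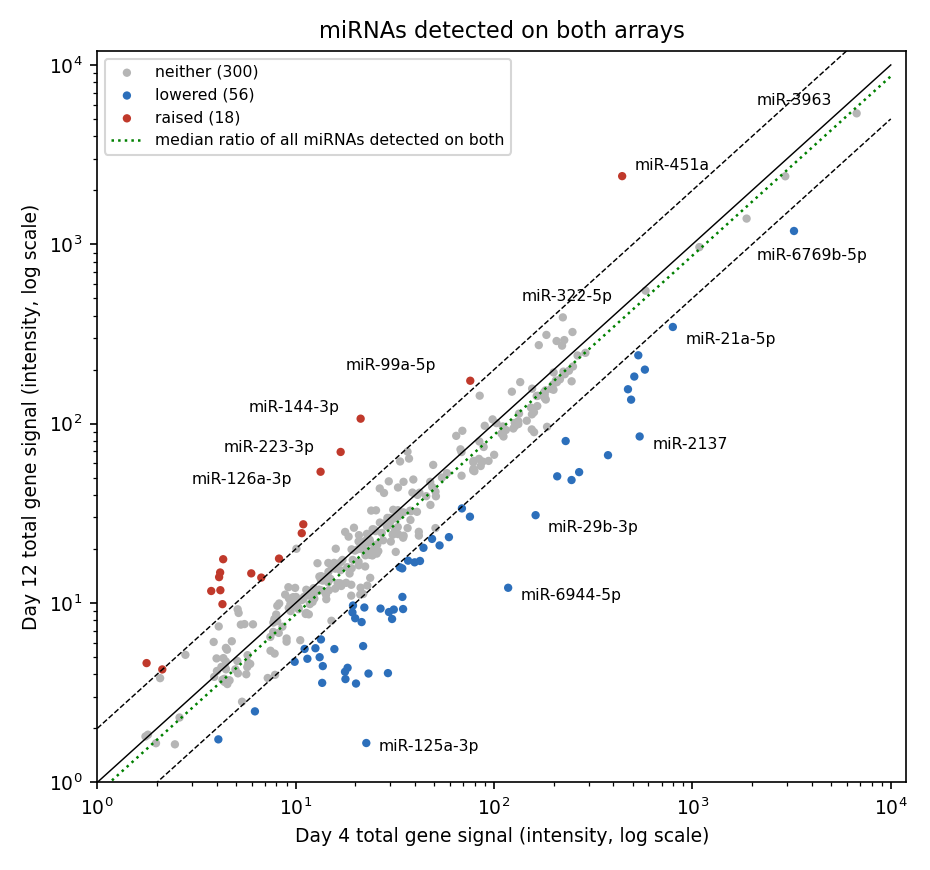
Total gene signal (intensity, log axes) at D12 against D4 for the 374 miRNAs detected on both arrays. Red points are the 18 raised and blue points the 56 lowered miRNAs, the solid line is a ratio of 1, dashed lines are ratios of 2 and 0.5, and the dotted line is the median ratio of 0.865; miR-451a stands apart as the only raised miRNA with a signal above 200 at D12.

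All 3 red blood cell miRNAs detected on both days were raised. The signal of miR-451a, a regulator of red cell maturation that is cut by Argonaute 2 in place of Dicer, was 9.40 on D0, 443 on D4, 2399.6 on D12, then 1559 on D16. It was the second brightest miRNA of the D12 array, after miR-3963. With 443 ± 33.8 at D4 and 2399.6 ± 182 at D12, its D12/D4 ratio was 5.42. From the same primary transcript, miR-144-3p was undetected on D0, 21.3 on D4, 107 on D12, then 78.4 on D16, a D12/D4 ratio of 5.01 that was 2.57 with normexp background. The opposite arm of that hairpin, miR-144-5p, was found at D12 alone, at 4.23, too dim for a bound above 1. Another member, miR-486a-5p, abundant in red cells and in muscle, was undetected on D0, 4.32 on D4, 17.6 on D12, then 11.1 on D16, which gives 4.07 with 1 probe detected at D4 and 2 at D12. It had 2.72 on the shared probe, 2.09 by mean spot signal and 1.30 with normexp background, where its call was lost. The mean spot signal averages the spots of the probes detected on each day, so its probes can differ between days. Of the 4 list members on the array 3 were raised and 1 appeared, against 4.81% raised of all 374 miRNAs and 2.2% that appeared of those not detected at D4. Their summed signal went from 468 at D4 to 2528 at D12.

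A leukocyte and an endothelial marker were raised too, at lower signals. The myeloid miR-223-3p was undetected on D0, 16.9 on D4, 69.6 on D12, then 47.6 on D16, a ratio of 4.12, and 2.04 with normexp background. The endothelial miR-126a-3p, from an intron of Egfl7, was undetected on D0, 13.4 on D4, 54.0 on D12, then 59.9 on D16, a ratio of 4.04 that was 1.83 with normexp background, where its call was lost. Its other arm was detected on neither day. Both arms of the blood cell miR-142a were below detection at D4 and were 8.63 (miR-142a-5p) and 7.36 (miR-142a-3p) at D12, at least 1.21-fold and 1.02-fold higher. The liver miRNA miR-122-5p appeared at 6.26, with no bound above 1, miR-192-5p was level at 4.23 at D4 and 4.41 at D12, and the lymphocyte miRNA miR-150-5p was not detected. Of the 8 list members 2 were raised, 3 appeared, 1 stayed between the thresholds and 2 were undetected, beside the 4.81% raised and 2.2% appeared over all miRNAs. None was detected on D0, and their summed signal was 34.5 on D4, 150.2 on D12, then 127 on D16. 3T3-L1 cells are neither blood nor vessel cells, and the source of these miRNAs was not tested.

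Most other raised miRNAs were dim and gained a detected probe. The array carries a median of 2 probes for a miRNA, and 13 of the 18 raised miRNAs had 1 probe detected at D4 and 2 at D12, so that their sum grew by a probe. Over the probes detected on both days all 18 ratios remained above 1 and 7 above 2, those of miR-451a, miR-144-3p, miR-223-3p, miR-126a-3p, miR-486a-5p, miR-99a-5p and miR-193a-3p. By mean spot signal 6 stayed above 2, all of these but miR-193a-3p. With normexp background 3 did, and the other 15 ran from 1.01 to 1.93. The ratio exceeded 2 by more than 2 errors in 5, namely miR-451a, miR-144-3p, miR-223-3p, miR-126a-3p and miR-486a-5p. For miR-101a-3p the signal was 4.17 at D4 and 14.8 at D12, a ratio of 3.55 that became 1.902 on the probe seen on both days. The neuronal and vascular miR-218-5p went from 4.18 to 11.8 and had 2.82 and 1.79 by these measures. These values and those of miR-3103-3p (2.31 and 1.16), miR-183-5p (2.15 and 1.55) and miR-667-3p (2.004 and 1.09) rest on 1 probe at D4, and which value describes them was not tested. Just outside the threshold stood miR-652-3p at 1.99, and just inside it miR-667-3p and miR-20b-5p at 2.07.

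**Figure D2:**
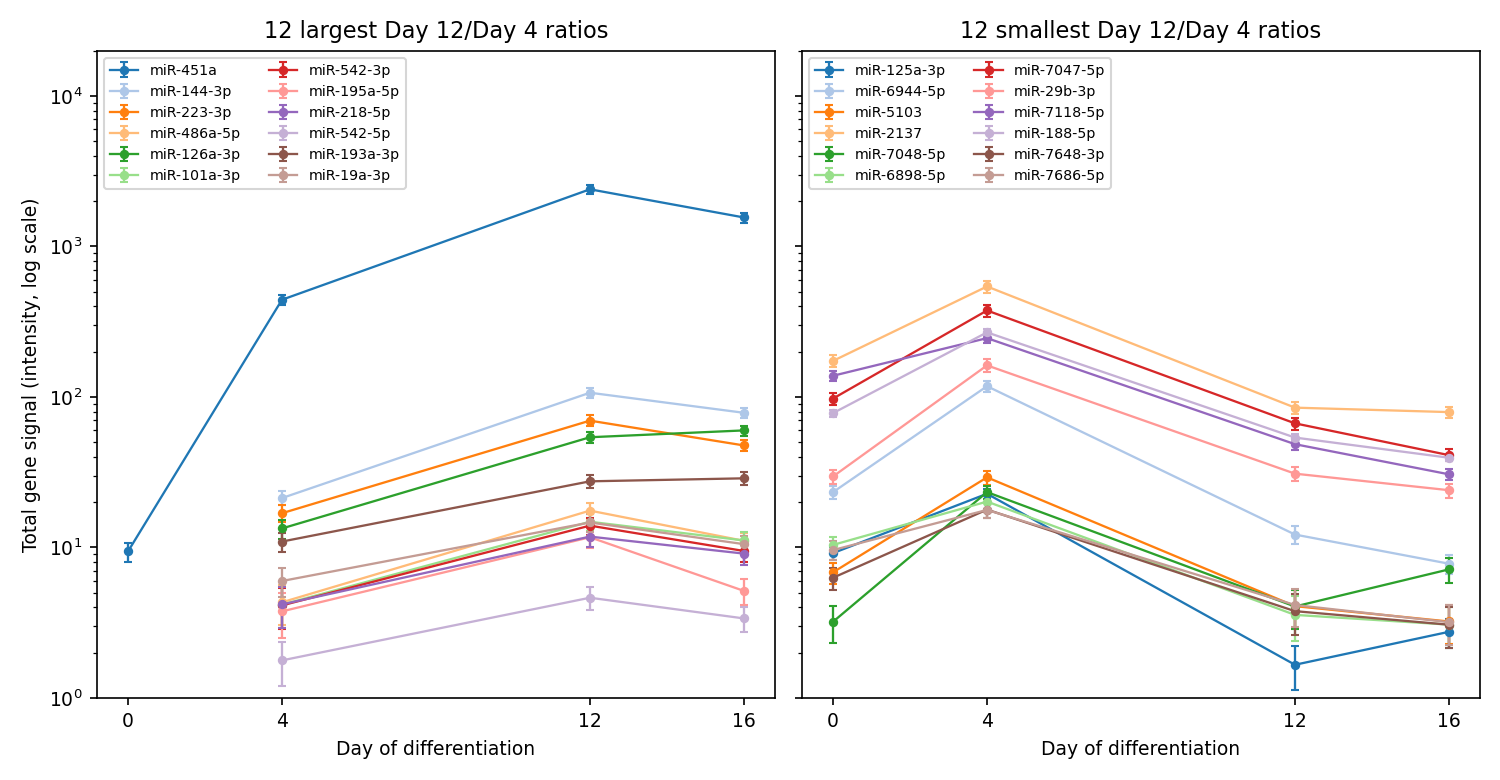
Total gene signal (intensity, log axis) on each of the 4 days for 12 raised miRNAs of highest and 12 lowered miRNAs of lowest D12/D4 ratio among those called under every scaling. Bars are the software's error within an array, and days on which a miRNA was not detected have no point; 11 of the 12 on the left have no D0 point, and in these unscaled signals all 12 on the right are at their highest at D4, though none of them met the rule for a peak at D4 under every scaling.

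The miR-99 and miR-100 family split within its seed. miR-99a-5p was 3.00 on D0, 75.9 on D4, 174 on D12, then 109 on D16, which gives a D12/D4 ratio of 2.29, unchanged on shared probes and 1.93 with normexp background. Its close relative miR-100-5p was undetected on D0, 10.7 on D4, 24.5 on D12, then 16.3 on D16, a ratio of 2.28 that fell to 1.94 on the shared probe and 1.18 by mean spot signal, both without a call. In contrast miR-99b-5p was 4.12 on D0, 36.9 on D4, 17.2 on D12, then 11.8 on D16, and its ratio of 0.467 was below 0.5 unscaled and 0.589 with 75th percentile scaling, so that it lost the call there but kept its direction, as it did with normexp background (0.723). miR-99b lies beside let-7e and miR-125a on chromosome 17, and the 3 families share this arrangement in other copies. The 3 guides of this chromosome 17 cluster had the lowest ratio of their families without scaling. let-7e-5p was 125 at D4 and 94.0 at D12, and its ratio of 0.751 was the lowest of 9 let-7 guides, though 1.00 with quantile normalization. miR-125a-5p was 41.8 at D4 and 24.96 at D12, a ratio of 0.597, against 1.40 for miR-125b-5p, which went from 207 to 289. The other arm of miR-99b was dim and level, with 1.80 at D4 and 1.85 at D12. The grouping by chromosome was made after the values were seen.

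let-7 guides, which mark differentiated cells, lay between the thresholds without scaling. Of 11 on the array 9 were detected on both days and none was called, where 4.81% of all miRNAs were raised and 15% lowered, so that so few members say little about the list. Their median ratio was 1.24, above the 0.865 of all miRNAs. Ratios ran from 0.751 in let-7e-5p to 1.71 in miR-98-5p. The brightest, let-7a-5p, was 27.7 on D0, 249 on D4, 324 on D12, then 216 on D16, while let-7j appeared at 7.56.

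The miR-15/16 seed family, whose members slow the cell cycle, had 4 of 5 ratios above 1, against 110 of all 374. Its median ratio over 5 members was 1.76, with miR-195a-5p raised, miR-497a-5p newly detected at 6.63, and none lowered. Over all miRNAs 4.81% were raised, 15% lowered and 2.2% of those not detected at D4 appeared, and the calls here are single members. miR-195a-5p was undetected on D0, 3.76 on D4, 11.7 on D12, then 5.14 on D16, a ratio of 3.11 that was 1.999 on shared probes. Its brightest member miR-322-5p, the mouse counterpart of miR-424, was 13.1 on D0, 222 on D4, 391.5 on D12, then 237 on D16, a ratio of 1.76. miR-16-5p stood at 68.6 at D4 and 69.5 at D12, and miR-15b-5p, transcribed with 1 copy of miR-16, at 111 at D4 and 96.5 at D12, the lowest ratio of the family at 0.872.

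miR-322 belongs to a cluster of 7 hairpins on the X chromosome, neighbours at most 10000 bases apart, 7 of whose products were detected on at least 1 of the 2 days. Both arms of miR-542 were raised, with 4.12 at D4 and 14.0 at D12 for miR-542-3p and 1.77 at D4 and 4.63 at D12 for miR-542-5p, ratios of 3.39 and 2.61. miR-450a-5p and miR-450b-3p were detected at D12 alone, at 5.50 and 4.09. Over all miRNAs 4.81% were raised, and 2.2% of those not detected at D4 appeared. miR-503-5p was level with 1.04, and miR-351-5p was below 1 with 0.662, so the cluster did not move as a block. On shared probes the ratios of miR-542-3p and miR-542-5p were 1.897 and 1.47.

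In the miR-17 family and its clusters, known for driving proliferation, all 8 listed members detected on both days had ratios above 1. Of these, 2 were raised, against 110 of 374 above 1 and 4.81% raised over all miRNAs. The median was 1.33. The raised members were miR-19a-3p, with 5.98 at D4 and 14.6 at D12 and a ratio of 2.45, and miR-20b-5p, with 6.71 at D4 and 13.9 at D12 and a ratio of 2.07. On shared probes these were 1.71 and 1.46. Among listed members miR-92a-3p had the lowest ratio, 1.06, with 38.8 at D4 and 41.3 at D12, and 4 of the 12 were detected on neither day. Other arms of these clusters, not on the list, were miR-18a-3p with 1.84 and miR-18b-3p with 0.726.

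Other small families had no member called without scaling, beside 4.81% raised and 15% lowered over all miRNAs. Both miR-26 members, described as helping fat cell differentiation, were above 1, with 64.5 at D4 and 85.5 at D12 for miR-26a-5p and 33.6 at D4 and 61.6 at D12 for miR-26b-5p. Their ratios were 1.33 and 1.83. miR-130a-3p, which targets Pparg, was 15.4 on D0, 84.7 on D4, 143 on D12, then 107 on D16, a ratio of 1.69, and its seed relative miR-301a-3p had 1.14. miR-103-3p and miR-107-3p, known for a role in insulin sensitivity, had 1.06 and 1.19. Among the 5 miR-30 guides, also described as pro-adipogenic, the ratios ran from 0.573 in miR-30a-5p to 1.38 in miR-30e-5p, with a median of 1.01. miR-30d-5p, the brightest of them, went from 36.7 to 26.2. With 75th percentile scaling 15 more miRNAs passed 2, among them miR-322-5p (2.22), miR-26b-5p (2.31), miR-130a-3p (2.13), let-7c-5p (2.05) and miR-98-5p (2.15), the last of which had 1.02 unscaled on the shared probe. The median of the 2 miR-125 members, 0.914 unscaled, was above 1 under some scalings and below 1 under others.

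In the miR-29 family, which represses collagens and other matrix genes, all 3 ratios were below 1 and 2 members were lowered, against 264 of 374 below 1 and 15% lowered over all miRNAs. miR-29a-3p was 96.2 on D0, 474 on D4, 156 on D12, then 111 on D16, so that 474 ± 36.9 at D4 and 156 ± 12.4 at D12 gave a ratio of 0.329. miR-29b-3p was 29.6 on D0, 162 on D4, 30.9 on D12, then 23.997 on D16, a ratio of 0.191 with 2 probes detected at D4 and 1 at D12, which became 0.386 by mean spot signal and 0.336 with normexp background. Both were lowered under every scaling, with the miR-29 median between 0.329 and 0.466, while miR-29c-3p, which differs from both outside the seed, went from 24.4 to 18.4. Its ratio of 0.756 lay near the median of all miRNAs.

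Of 4 inflammation miRNAs on the array 1 was lowered, 1 was lost, 1 lay between the thresholds and 1 was undetected. Over all miRNAs 15% were lowered and 12.2% of those detected at D4 were lost, and these are single members. miR-21a-5p, abundant in dividing and inflamed cells, was the brightest of the inflammation list at 140.3 on D0, 797 on D4, 346 on D12, then 268 on D16. Its ratio of 0.434 was 0.547 with 75th percentile scaling. miR-155-5p, induced by inflammatory signals, was 33.9 ± 3.22 at D4 and was detected on no other day. The bound is at least 5.08-fold lower at D12, taken against 3 times the error summed over its probes there. miR-146b-5p had 24.9 at D4 and 25.7 at D12, and miR-146a-5p was not detected. The hypoxia miRNA miR-210-3p was undetected on D0, 21.9 on D4, 5.76 on D12, then 3.83 on D16, a ratio of 0.263, and miR-31-5p was undetected on D0, 18.3 on D4, 4.36 on D12, then undetected on D16, a ratio of 0.238. On probes detected on both days these were 0.420 and 0.333. By mean spot signal they were 0.540 and 0.489 and with normexp background 0.750 and 0.775, so that miR-210-3p lost its call by both measures and miR-31-5p by normexp.

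Among miRNAs described as rising in adipogenesis, miR-193a-3p was undetected on D0, 10.9 on D4, 27.5 on D12, then 28.8 on D16, raised with a ratio of 2.51. It was 2.096 on the shared probe but 1.30 by mean spot signal and 1.33 with normexp background, both without a call. miR-193b-3p, with which it shares a seed, had 1.64. miR-148a-3p was not detected at D4 and was 25.7 ± 2.46 at D12 and 22.9 at D16. This is at least 3.52-fold higher than at D4, the only such bound above 2 among those that appeared. Its seed partner miR-152-3p was already present, with 29.5 at D4 and 47.7 at D12. miR-378a-3p, from an intron of Ppargc1b, appeared at 10.4. Besides miR-210-3p, miR-335-5p, from an intron of the adipose growth gene Mest, was lowered, with 12.6 at D4 and 5.6005 at D12 and a ratio of 0.445, but 0.800 on the probe detected on both days. miR-34a-5p went from 37.9 to 29.1, miR-143-3p from 3.99 to 4.91 and miR-365-3p from 27.9 to 41.1. Of the 11 list members 1 was raised, 2 appeared, 2 were lowered, 5 lay between and 1, miR-145a-5p, was undetected, and the median ratio over 8 was 1.35. Over all 374 miRNAs 4.81% were raised and 15% lowered, and 2.2% of those not detected at D4 appeared. The calls of this list are single members.

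Next come miRNAs abundant in fibroblasts. miR-214-3p, made from an antisense transcript of Dnm3, was 23.5 on D0, 185 on D4, 96.1 on D12, then 52.8 on D16, a ratio of 0.519 just outside the threshold. From the same cluster miR-199a-3p, the brightest of this list, went from 581 to 551. Whether all of its signal came from that cluster was not tested. miR-199b-5p, which was on the list and does not belong to that cluster, had the highest ratio, 1.26. The median of the 4 detected list members, 0.848, went above 1 under some scalings. In the miR-23, miR-24 and miR-27 clusters, described as anti-adipogenic for miR-27, the copies on chromosome 8 were lower, with ratios of 0.6999 for miR-23a-3p, 0.660 for miR-27a-3p and 0.563 for miR-24-3p, which 2 loci encode. miR-23b-3p and miR-27b-3p from the other cluster had 1.06 and 1.04. miR-22-3p, measured by qPCR in the study, was level with 156 at D4 and 157 at D12.

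The imprinted Dlk1-Dio3 cluster, active in stem and progenitor cells, was mostly undetected. Of 90 listed products on the array 6 were detected, all on both days, with a median ratio of 0.791. Over all miRNAs of the array 22.6% were detected at D4 and 21.6% at D12. miR-494-3p carried most of it, with 222 on D0, 576 on D4, 200.2 on D12, then 147 on D16, a ratio of 0.347 below 0.5 under every scaling. miR-654-3p was lowered unscaled (0.426) but had 0.859 on the probe detected on both days, and miR-667-3p was raised at 2.13 at D4 and 4.27 at D12, where the errors were 0.594 and 0.835. miR-3072-5p, which lies among these hairpins and was not on the list, had 9.04 at D4 and was not detected at D12. In the families of the Sfmbt2 intron (miR-297, miR-466, miR-467 and miR-669) 40 of 61 members were detected on both days and none was called. Of the 42 members detected at D4, 2 disappeared, and 19 members were undetected. Over all miRNAs 4.81% were raised, 15% lowered and 12.2% of those detected at D4 lost. Their ratios ran from 0.526 in miR-466b-3p to 0.994 in miR-466h-5p around a median of 0.777, which reached 1.02 under the scaling that lifted it most. These repeat-rich sequences are alike, and whether probes tell them apart was not tested. None of the 7 striated muscle miRNAs on the array, among them miR-1a-3p and miR-206-3p, was detected on any of the 4 days. Over all miRNAs between 17.5% (D0) and 22.6% (D4) were detected on a day, so that so few members say little about the list.

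**Figure D3:**
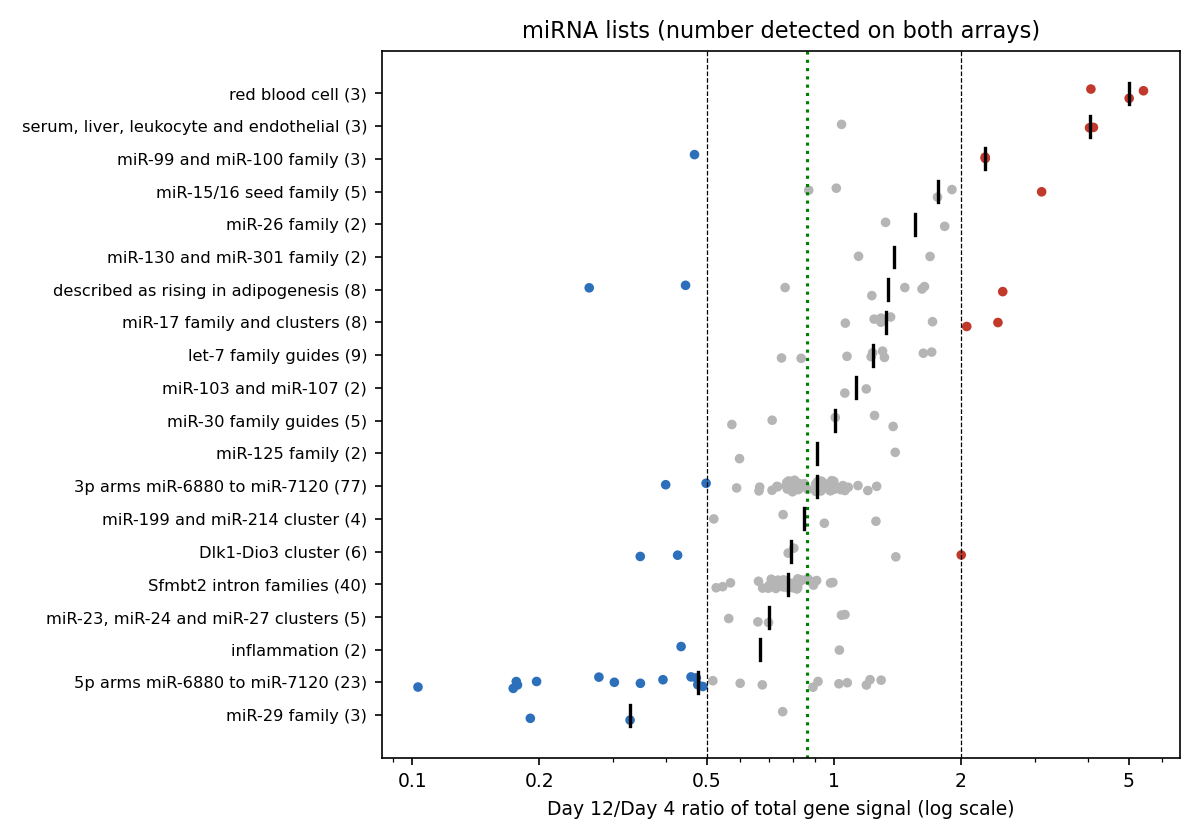
D12/D4 ratio (log axis) of each member detected on both arrays, by list, with the number of such members in brackets. Red points are raised, blue points lowered and grey points neither, their height within a line has no meaning, black bars are list medians, the dotted line is the median of all 374 miRNAs (0.865) and dashed lines are ratios of 0.5 and 2; the red blood cell list lies highest and the miR-29 list lowest.

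The larger part of the lowered miRNAs carried high numbers. A number of 1000 or more stood in the names of 39 of the 56 lowered miRNAs (69.6%), against 1 of the 18 raised and 188 of the 374 (50.3%). Numbers follow the order of discovery, and most of these miRNAs have no known role. miR-6769b-5p, the brightest, was 1247 on D0, 3252 on D4, 1187 on D12, then 986 on D16, a ratio of 0.365. miR-2137 was 174 on D0, 542 on D4, 84.9 on D12, then 79.3 on D16, a ratio of 0.157. miR-6944-5p was 23.3 on D0, 118 on D4, 12.2 on D12, then 7.79 on D16, a ratio of 0.103, and 0.130 on the probe detected on both days, 0.209 by mean spot signal and 0.321 with normexp background. The lowest ratio of all, 0.0730 for miR-125a-3p, rested on 4 probes detected at D4 and 1 at D12, with 22.7 at D4 and 1.66 at D12, and was 0.304 on the shared probe and 0.693 with normexp background, where its call was lost. Of the 56 lowered miRNAs 19 differed in their number of detected probes, and 49 stayed below 0.5 on probes detected on both days, 42 by mean spot signal and 15 with normexp background.

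Other lowered miRNAs among the 12 smallest ratios were bright enough to be seen on the same probes on both days. miR-7047-5p had 376 ± 33.8 at D4 and 66.7 ± 6.08 at D12, a ratio of 0.178. miR-7118-5p had 246 ± 17.7 at D4 and 48.5 ± 3.81 at D12, a ratio of 0.197. miR-188-5p, measured on 4 probes each day, had 269 ± 13.5 at D4 and 53.7 ± 2.91 at D12, a ratio of 0.1999. With normexp background these 3 were 0.250, 0.300 and 0.295. The remaining ones were dim at D12, where miR-5103 (0.139), miR-7048-5p (0.174), miR-6898-5p (0.177), miR-7648-3p (0.211) and miR-7686-5p (0.233) had signals between 3.56 and 4.14. Of these, miR-7048-5p, miR-6898-5p and miR-7686-5p went from 2 detected probes to 1 and had 0.334, 0.316 and 0.428 on the shared probe. All 5 lost the call with normexp background, at 0.572 to 0.771. At the threshold, miR-6378 and miR-6975-3p were just inside at 0.4998 and 0.498, and miR-5128 was just outside at 0.505.

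The arms of these hairpins differed. Among 5p arms numbered miR-6880 to miR-7120, 23 were detected on both days and 13 of them were lowered, 9 under every scaling, with a median ratio of 0.476, and no member was raised, against 15% lowered and 4.81% raised over all miRNAs. Among the 3p arms of the same range, 77 were detected on both days and 2 were lowered, with a median of 0.913. Of the 206 such 5p arms on the array 30 were detected at D4, and 7 of these disappeared, while 5 others appeared and 171 were undetected. Of the 204 3p arms 83 were detected at D4, and 6 of these disappeared, while 2 others appeared and 119 were undetected. Over all miRNAs 2.2% of those not detected at D4 appeared and 12.2% of those detected at D4 were lost. On neither day detected were 1423 of the 1881. The extremes were miR-6944-5p and miR-7042-5p (1.29) among 5p arms, and miR-7027-3p (0.399) and miR-7019-3p (1.26) among 3p arms. The 5p median stayed between 0.476 and 0.599 over the scalings, while the 3p median crossed 1. Within single hairpins the difference could be read directly, a comparison added after the values were seen. Of 12 hairpins numbered 6000 or above with both arms detected on both days, the 5p arm alone was lowered in 10 without scaling and the 3p arm in none. This count was 6 with 75th percentile, median or quantile scaling, 8 with the spike-ins and 4 with normexp background, and the 3p arm was lowered in none of them. miR-7047 shows it at high signal, since its 5p arm had a ratio of 0.178 and its 3p arm went from 194 to 156, a ratio of 0.804. For miR-6769b the arms had 0.365 and 0.934, and for miR-7036a 0.277 and 1.05. Among the 24 other hairpins with both arms, the 5p arm alone was lowered in 1 (miR-99b), the 3p arm alone in 2 (miR-125a and miR-211), both arms were raised in 1 (miR-542) and the 5p arm alone in 1 (miR-195a).

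Base composition moved with the ratio. The median share of G and C was 42.9% in 17 raised miRNAs with a sequence, 63.2% in 53 lowered and 54.5% in 302 detected on both days. Of 109 miRNAs with 60% or more, 29 were lowered and 1 raised, and of 31 with under 40%, 4 were lowered and 6 raised. Spearman's rho between the share and the log2 ratio was -0.299 across these 302 miRNAs, which share 2 arrays and are not independent. Sequences were missing unevenly, since only 6 of the 40 Sfmbt2 intron members detected on both days had one. Those 6 had a median of 39.0% G and C, while all 40 ratios were below 1. How the miRNAs without a sequence would change rho was not tested. The median length was 22 bases in each group. miR-2137, with 85.7% G and C, and miR-144-3p, with 30%, show the contrast in the sequences printed above the values.

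**Figure D4:**
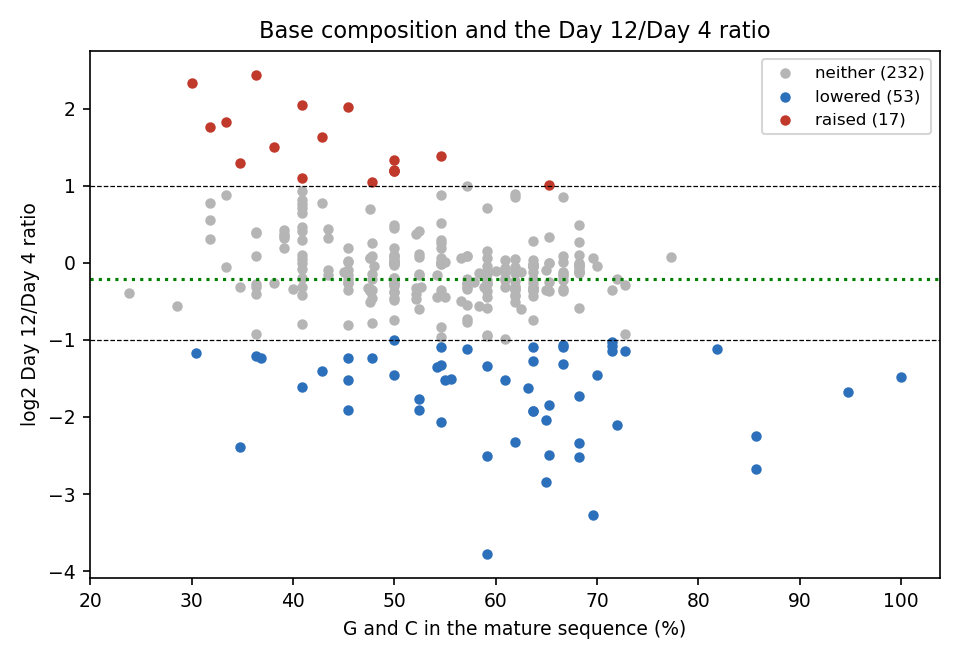
log2 D12/D4 ratio against the percentage of G and C in the mature sequence for the 302 miRNAs detected on both arrays that have a RefSeq sequence. Red points are the 17 raised, blue points the 53 lowered, dashed lines are ratios of 2 and 0.5 and the dotted line is the median of all miRNAs; lowered miRNAs reach from 30.4% to 100% and are most numerous above 60%.

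Some miRNAs crossed the detection limit between the days. Of 1455 miRNAs not detected at D4, 32 (2.2%) were detected at D12, and of 426 detected at D4, 52 (12.2%) were not. Most of these were dim, with a median of 5.92 at D12 for those that appeared and 6.66 at D4 for those that disappeared. A bound above 1 could be given for 11 that appeared and 26 that disappeared. After miR-148a-3p the brightest newcomers were miR-652-5p at 11.3, miR-378a-3p, miR-142a-5p and miR-6935-5p at 8.54. Only miR-148a-3p and miR-652-5p exceeded their D4 limit by 2 errors. After miR-155-5p the brightest that were lost were miR-483-5p at 27.9, an intronic product of Igf2, miR-3102-5p.2-5p at 25.9, miR-3154 at 19.5 and miR-6965-5p at 17.3. Their bounds ran from at least 2.53-fold lower for miR-6965-5p to at least 4.11-fold for miR-483-5p, and 18 of the 52 exceeded the D12 limit by 2 errors. On the D16 array, 21 of the 32 newcomers and 6 of the 52 lost miRNAs were detected.

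With D0 added, 17 of the 18 raised miRNAs (4.55% of 374) met the rule that D4 was also above 2 times D0 or that D0 was not detected. Of these, miR-451a and miR-99a-5p were detected at D0 and 15 were not. For the 15, the D4 signal over 3 times the error summed over the probes at D0 was above 1 in 8 and above 2 in 5. For the other 7 (miR-486a-5p, miR-101a-3p, miR-542-3p, miR-542-5p, miR-195a-5p, miR-218-5p and miR-3103-3p) it was 1 or less, and no rise from D0 to D4 was shown. These bounds are unscaled, and the D0 array was dimmer, also in the spike-ins given below. Low bounds above 1, such as 1.22 in miR-19a-3p and 1.34 in miR-20b-5p, therefore show no rise by themselves. The raised miRNA that did not meet the rule was miR-667-3p, with 1.61 at D0 and 2.13 at D4. A further 42 (11.2%) met the rule for a peak at D4. This count changed most with the scaling, and the D0 array was dimmer, also in its spike-in signals (dmr_3 at 10259 on D0 and 19582 on D4). It fell to 18 with spike-in scaling and to 3 with 75th percentile or quantile scaling, and none of the 34 that were detected at D0 met it under every scaling. miR-210-3p and miR-31-5p did, but they were undetected at D0, where no scaling can change that side of the rule. Both ratios share the D4 array. At D16, 17 of the 18 raised miRNAs were still detected, all but miR-3103-3p.

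Of the 10 brightest miRNAs of the D12 array 7 lay between the thresholds. miR-3963 was 1918 on D0, 6731 on D4, 5373 on D12, then 3927 on D16, a ratio of 0.798. miR-6366 had 2939 at D4 and 2395 at D12, miR-5100 1877 at D4 and 1392 at D12 and miR-1224-5p 1085 at D4 and 965 at D12. With ratios of 0.815, 0.742 and 0.890 all of these lay between the thresholds. The other members of the 10 brightest were miR-451a, miR-6769b-5p, miR-199a-3p, miR-322-5p, miR-21a-5p and let-7a-5p, of which 1 was raised and 2 were lowered. Over all 374 miRNAs 300 lay between the thresholds, 4.81% were raised and 15% lowered.

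The bars of calls by setting show how far the counts moved. Means over all spots with normexp background, which adds an offset to every spot and so draws ratios of dim spots towards 1, left 3 raised miRNAs, miR-451a, miR-144-3p and miR-223-3p, and 15 lowered, all of them among those called unscaled. Of the medians of lists, those of let-7, miR-15/16, miR-17, miR-30, miR-26, miR-99 and miR-100, miR-103 and miR-107, miR-130 and miR-301, adipogenesis, red blood cell and serum miRNAs were above 1 under no scaling and every scaling. Those of miR-29, miR-23 with miR-24 and miR-27, inflammation, Dlk1-Dio3 and the 5p arms were below 1 in each.

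**Figure D5:**
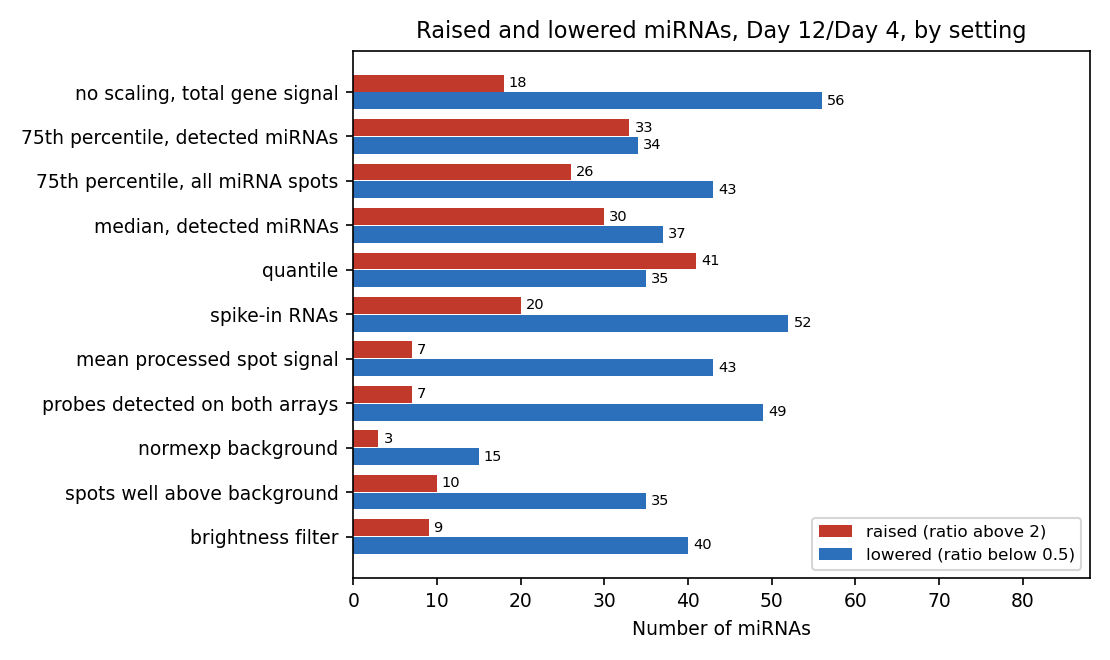
Number of miRNAs raised (red, ratio above 2) and lowered (blue, ratio below 0.5) at D12 against D4 under no scaling, 5 scalings and 5 other ways to measure, call or filter. Raised miRNAs range from 3 with normexp background to 41 with quantile normalization, and lowered miRNAs from 15 with normexp background to 56 without scaling.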

How the data were processed

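The authors deposited the output of Agilent Feature Extraction 11.0, named in the submitters' processing notes, for 1 single-colour array a day as intensity values with no scaling between arrays. The software subtracted a median of 56.4 at D4 and 55.1 at D12 from miRNA spots, where the local background was 36 and the fitted background surface 57.1 and 55.8. On the SurePrint G3 mouse array, release 19.0, with all 4 arrays on 1 slide, the deposited total gene intensity of a miRNA was checked to be the sum over its probes above 3 times their error, within 0.1%, in all 426 miRNAs detected at D4 and all 406 at D12. It is scaled by an effective spot size, which was 0.780 at D4 and 0.760 at D12, where the software fitted it, and 0.6, a default, on the other arrays. Control probes were left out.

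Ratios, counts and bounds were computed with Python 3.11.15, pandas 2.3.3, numpy 2.4.6 and scipy 1.17.1, figures with matplotlib 3.10.9, and normexp (offset 50, on median spot signals and local background) with limma 3.58.1 in R 4.3.3. No scaling was the main setting because the study's methods name none, although the study's own ratios are on another scale than unscaled intensities. With 1 pooled array a day no test was made, and 1 array a day limits the precision. Alternatives were 5 scalings, 3 other measures of signal, other rules of detection, a filter on brightness, fold thresholds of 1.5 and 3 and a margin of 2 errors. A bound divides the signal of a detected miRNA by 3 times the error summed over its probes on the other day, and no fold is given where this is 1 or less. The ratio and scaling steps were tested on simulated data with known folds.

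Named miRNAs were the 12 largest and 12 smallest ratios among those called under every scaling, the 5 brightest that appeared and the 5 that disappeared, the 10 brightest at D12, the 9 measured by qPCR in the study, and the highest and lowest ratio of each of 21 lists. Others were named after their values were seen. The members and the lists were chosen with earlier results of these data known. Sequences and neighbouring hairpins were taken from RefSeq (GRCm38.p6) by name, and the array's own coordinates were not used.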

Additional observations from a re-analysis of the deposited data

Results flagged for a closer look

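Control probes outside the miRNA measurement held a signal on both arrays that differed between the days. The files name them hur_1, hur_2, hur_4, hur_6 and mr_1 and do not say what they match. The brightest, hur_2, was 1453 on D0, 12333 on D4, 3807 on D12, then 4334 on D16, a D12/D4 ratio of 0.309. The ratio was 0.381 for hur_1, 0.550 for hur_4, 0.443 for hur_6 and 0.323 for mr_1. These 5 lay below the spike-in RNAs of the kit, at 0.898 to 1.00, and below the median miRNA ratio of 0.865, and 4 of them were under the 0.5 that defines lowered miRNAs. Their part in the lowered miRNA signals was not tested.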

How the results depend on the processing

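The numbers detected at D4 and D12 were within 1.5 times of the unscaled values under both other detection rules. The median ratio went from 0.865 to 1.09 with 75th percentile scaling, 1.05 with the median and 1.07 with quantile normalization, where it changed sides of 1. For raised, lowered, rising and peaking miRNAs (18, 56, 17 and 42 unscaled, rising by the rule that also takes those undetected at D0), 75th percentile scaling gave 33, 34, 27 and 3, and quantile normalization 41, 35, 32 and 3. Median scaling gave 30 raised, 37 lowered and 6 peaking, the 75th percentile over all spots 23 peaking, and the spike-ins 18 peaking. The mean spot signal gave 7 raised, 7 rising and 25 peaking, and probes detected on both arrays 7 raised and 7 rising. Normexp gave 3, 15, 3 and 9, detection by spots well above background 10, 35, 10 and 26, and the brightness filter 9 raised and 9 rising. A fold of 1.5 gave 34 raised, a fold of 3 gave 8 raised and 24 lowered, and a margin of 2 errors 5 and 26. With that margin on the other day's limit 2 appeared and 18 disappeared, in place of 32 and 52. For the hairpins numbered 6000 and up with the 5p arm alone lowered (10 of 12 unscaled), recounts were chosen after seeing the data. They gave 6 of 12 with either 75th percentile, the median or quantile normalization, and 4 of 12 with normexp. Spots well above background left 8 hairpins, 6 of them with the 5p arm alone lowered, and the brightness filter left 5, all 5 of them so. The cause of these changes was not tested, except that every scaling but quantile multiplies all D12/D4 ratios by 1 factor and stricter rules leave fewer miRNAs.

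Of 645 values of 68 single miRNAs under alternatives, 399 moved by less than the software's error of the ratio. Of the called miRNAs named by rule, 1 changed sides of 1, miR-667-3p, with 0.942 by mean spot signal. So did miR-6975-3p at the threshold, with 1.02. Both had a different number of detected probes on the 2 days. On the probe detected on both days their ratios were 1.09 and 0.729, without a change of side. Signals near the detection limit, where 1 probe more or less decides the sum, limit most raised miRNAs other than miR-451a, miR-144-3p, miR-223-3p, miR-126a-3p and miR-99a-5p. No paired analysis was possible because each day has 1 array.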

Other observations

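Some miRNAs of 1 name group crossed the detection limit together, where 2.2% of miRNAs not detected at D4 appeared and 12.2% of those detected at D4 were lost. No bound above 1 could be given for 21 of the 32 that appeared and 26 of the 52 lost, so that crossing the limit alone shows no fold. miR-378a-3p, miR-378b and miR-378d were all undetected at D4 and were 10.4, 7.31 and 4.54 at D12, and whether their probes tell them apart was not tested. miR-181a-5p and miR-181b-5p, which share a seed and are known from lymphocytes and many other tissues, appeared at 4.28 and 4.19. In the other direction miR-222-3p was 3.96 at D4 and undetected at D12, while its cluster partner miR-221-3p was 23.7 at D4 and 18.6 at D12, a ratio of 0.784. The miR-3473 group was lowered in 3 members, beside 15% lowered over all 374 miRNAs. Ratios were 0.353 for miR-3473a, 0.244 for miR-3473b and 0.348 for miR-3473g, while miR-3473d had 0.915. These miRNAs were chosen after their values were seen.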
